A study of Mus musculus with 4 samples.

Results

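The genes described here are the clustered replication-dependent histone genes of mouse tumours, chosen by symbol alone: every gene whose symbol begins with Hist1h, Hist2h, Hist3h or Hist4h. There are 67 of them among the 32286 features measured. Of these, 54 lie in the Hist1 cluster on chromosome 13, 10 in the Hist2 cluster on chromosome 3, 2 in the Hist3 cluster on chromosome 11, and 1, the only Hist4 gene, on chromosome 6. By the protein they encode, 6 are linker histones of class H1, 18 are H2A, 18 are H2B, 12 are H3 and 13 are H4.

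Single cells were captured from fresh tumour tissue labelled MB, in 4 libraries, 1 per group. The SG libraries carry fSMO-M2 and hGFAPcre, and the YSG libraries carry fYap1 in addition. Each genotype was sampled once in a male and once in a female, and the design text places all of them at end point and calls the fYap1 animals rescued. All 4 groups share the SMO-M2 allele and the hGFAP-driven Cre, and no group lacks either. In mice, SMO-M2 is an activated form of Smoothened that switches on Hedgehog signalling, and an hGFAP promoter drives Cre in neural stem and progenitor cells, from which cerebellar granule neurons also descend. The labels give no age, and genotype, sex, animal and capture run cannot be told apart beyond the 2 genotypes and 2 sexes, because each group is 1 library.

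Every cell that copies its genome must also double its nucleosomes, and the clustered histone genes supply most of that protein. Core histones H2A, H2B, H3 and H4 form the nucleosome, and H1 binds the linker DNA between nucleosomes. Transcription of the clusters is switched on as cells enter S phase through the coactivator NPAT, the product of Npat. Their mRNAs usually carry no poly(A) tail and end a few bases after a short stem-loop, which stem-loop binding protein (the product of Slbp) holds through processing, translation and the rapid decay that follows S phase. Some clustered genes can also make longer, polyadenylated transcripts, a form known from differentiating and resting cells. Replication-independent variants such as H3.3 and H2A.Z are encoded elsewhere in the genome by ordinary polyadenylated mRNAs. Medulloblastomas driven by Hedgehog signalling arise from granule neuron progenitors, which divide in response to that pathway and stop dividing as they become neurons.

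The libraries were made with a 3′ kit that primes on poly(A), so a histone mRNA that ends at its stem-loop should be captured poorly, and the annotated 3′ ends of the genes bear on every level that follows. The processing signal was searched for in the longest coding transcript of each gene (GENCODE M21, build GRCm38), on its own strand. It was present in 43 of 67 clustered histone genes (64.2%) and in any transcript of 149 of 55383 other genes (0.269%). In the members it took 6 forms, which together read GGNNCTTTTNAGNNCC, where N stands for positions that varied; the search fixed the same letters but left position 7 open as well. The stretches below show it in capitals, with the 5 bases on each side, or the fewer that the transcript has, in lower case. They are genes of all 5 classes that the results turn on, and show how alike the signal is between them.
Hist1h1e: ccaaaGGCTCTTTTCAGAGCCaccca
Hist1h1c: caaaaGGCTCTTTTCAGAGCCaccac
Hist1h2ae: acaaaGGCTCTTTTCAGAGCCattca
Hist1h2ap: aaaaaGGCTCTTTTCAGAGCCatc
Hist3h2a: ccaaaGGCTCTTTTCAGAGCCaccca
Hist3h2ba: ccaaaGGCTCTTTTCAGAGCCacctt
Hist1h3c: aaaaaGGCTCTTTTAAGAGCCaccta
Hist1h4d: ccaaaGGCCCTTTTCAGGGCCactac
Hist1h4i: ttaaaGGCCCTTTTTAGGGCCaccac

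The annotation continued well past this signal for many of the measured genes. The annotated transcript ended 3 bases after it for Hist1h2ap and 74 bases after it for Hist1h3c, but 151 bases after it for Hist1h2ae, 169 for Hist3h2ba, 330 for Hist1h4i, 770 for Hist1h4d, 840 for Hist1h1c, 1153 for Hist1h1e and 1643 for Hist3h2a. Over all members, 22 had a transcript that ran more than 100 bases beyond the signal, 21 ended within 100 bases of it, and 24 did not hold its letters in the transcript searched. The 22 extended genes held 47.6% of the histone UMIs (unique molecular identifiers, the tags that count captured mRNA molecules) of the 4 libraries, and the 21 short ones 9.23%. The remaining 43.2% came from the 24 genes without the letters, among them Hist1h1b, Hist1h1a and Hist1h2bc. Missing letters do not show that a gene lacks the signal. The transcripts of Hist1h2ai, Hist1h2ak and Hist1h2an, for example, were 393 bases long, the length of their coding sequence. Sequence past the annotated ends was not searched. The letters AATAAA, the common signal for adding a poly(A) tail, were present in the last 50 bases of 9 of the 22 extended transcripts and of 0 of the 21 short ones. Among those 9 are Hist3h2ba, Hist3h2a, Hist1h1c and Hist1h2ae.

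Near-identical copies limit how far single genes can be read. A stretch of 90 bases from the last 400 bases of a transcript was found in 1 gene only at every position for 20 of the 67 members, at under 50% of positions for 28, and at no position for 7. The 7 are Hist1h1e, whose last 400 bases overlap a transcript of Hist1h2be on the same strand, and Hist1h2ap, Hist1h2bq, Hist1h2br, Hist2h2aa1, Hist2h2aa2 and Hist2h3c1. The coding sequences of Hist1h2ap and Hist1h2ao differ at 0 of 393 bases, those of Hist1h2ae and Hist1h2ap at 6, and those of Hist1h2ak and Hist1h2ap at 12. The values of these genes are therefore uncertain where the counting assigned or dropped shared reads.

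Promoters are shown for 3 genes that differ across S phase in the results below, the linker gene Hist1h1b and the Hist3 cluster neighbours Hist3h2ba and Hist3h2a. Each line gives the 150 bases before the RefSeq start (GRCm38.p6), with 3 motifs in capitals on either strand: the CCAAT box, the letters TATAAA of a TATA box, and the octamer ATTTGCAT, a sequence bound by OCT1 in H2B promoters. The stretches are chr13:21780626-21780775 on the minus strand for Hist1h1b, chr11:58948761-58948910 on the plus strand for Hist3h2ba and chr11:58954535-58954684 on the plus strand for Hist3h2a.
Hist1h1b: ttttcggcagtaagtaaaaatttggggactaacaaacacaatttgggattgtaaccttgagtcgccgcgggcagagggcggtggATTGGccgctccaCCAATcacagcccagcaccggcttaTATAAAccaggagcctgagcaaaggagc
Hist3h2ba: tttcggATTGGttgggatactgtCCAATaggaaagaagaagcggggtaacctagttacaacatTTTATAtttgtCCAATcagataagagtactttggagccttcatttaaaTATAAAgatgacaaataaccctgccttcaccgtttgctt
Hist3h2a: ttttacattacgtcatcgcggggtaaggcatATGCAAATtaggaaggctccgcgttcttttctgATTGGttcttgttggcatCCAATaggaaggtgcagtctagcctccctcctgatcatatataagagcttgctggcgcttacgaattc
Of the 67 members, 61 matched a RefSeq promoter (250 bases before to 50 after the start). CCAAT was present in 52 of 61 (85.2%) against 37.9% of 27025 promoters of all genes, and in every class but H4, where 3 of 12 held it, all matched promoters had it. TATAAA was present in 35 of 61 (57.4%) against 14.2%. The octamer was present in 7 of 17 H2A and 6 of 16 H2B promoters and in 0 of the H1, H3 and H4 promoters, against 1.75% of all promoters. A match is a description of these letters and not evidence of a bound factor.

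Cells were kept from 500 UMIs and 300 genes up if no more than 20% of their UMIs were mitochondrial, and the libraries then held 7193 to 8419 cells and 58308739 to 86810253 UMIs, with medians of 5872.5 to 7419.5 UMIs per cell. Yap1, the targeted gene, had 266 UMIs in the SG male and 374 in the SG female, against 10 in the YSG male and 3 in the YSG female. Granule lineage markers were present in all 4 libraries, with Barhl1 at 174 to 215 and Ptch1 at 191 to 381 CPM (UMIs scaled to the same total of all UMIs in each library), while cells called oligodendrocyte-like, leukocyte-like, astroglia-like or endothelial-like from markers were few, between 1 and 74 per class and library. Pairs of libraries shared 10 to 21 cell barcodes, at most 0.272% of the smaller library. Between single libraries there is no test, because each group has 1, and the brackets below are exact 95% intervals that cover counting error only. A gene was counted as higher or lower when its CPM differed by more than 2-fold and reached 5 CPM on at least 1 side.

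The clustered histone genes together took up a little over 0.1% of all UMIs. They summed to 104817 UMIs in the SG male, 67645 in the YSG male, 147142 in the SG female and 92454 in the YSG female. In CPM these are 1433 (1424–1442), 1111 (1103–1119), 1695 (1686–1704) and 1586 (1575–1596), highest in the SG female and lowest in the YSG male. The molecules were unevenly spread over cells: the median cell held 3 histone UMIs in both male libraries and 5 in both female libraries, the richest cell between 142 and 261, and the tenth of cells with the most held 49.2 to 53.2% of them. At least 1 UMI was found for 66 of the 67 members, for 63 of them in every library. Hist1h2bq had 0 UMIs throughout, which allows up to 3 UMIs per library. Only 29 members reached 5 CPM in any library, 13 reached 20 CPM and 15 stayed below 1 CPM in all 4. Levels of different genes are captured molecules in CPM, 1 tag per molecule and not divided by length, and they depend on how well each 3′ end is captured, so the order of genes below is an order of UMIs.

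Linker histones supplied most of the histone UMIs. Class H1 was at 937 CPM in the SG male, 591 in the YSG male, 1092 in the SG female and 1007 in the YSG female, or 65.4%, 53.2%, 64.4% and 63.5% of all histone UMIs. H2A followed with 153, 211, 242 and 162 CPM in the same order of libraries, H2B with 157, 167, 165 and 255, H4 with 109, 92.0, 118 and 109, and H3 with 76.8, 50.3, 77.9 and 53.7. The classes did not keep 1 pattern over the libraries: H1 and H4 were lowest in the YSG male, H2A was high in the YSG male and the SG female, H2B stood apart in the YSG female, and H3 was lower in both YSG libraries than in either SG library.

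**Figure D1:**
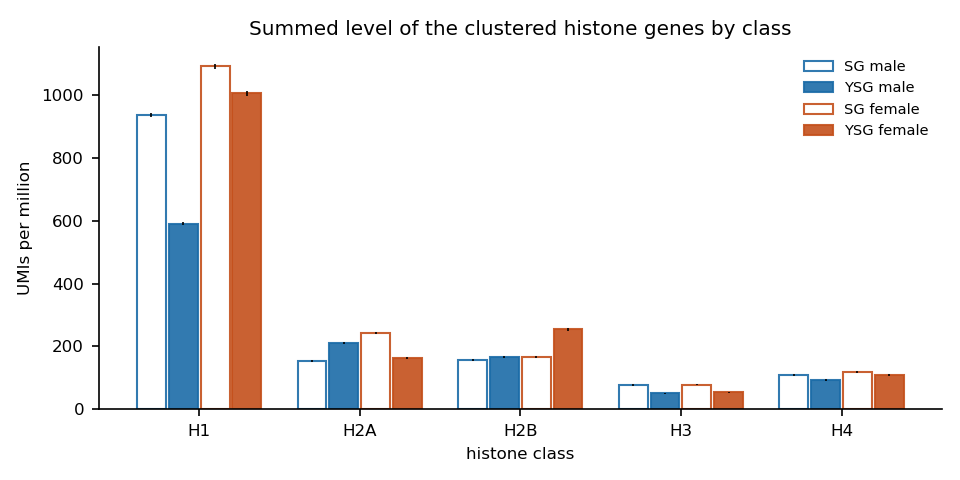
Summed level of the clustered histone genes by class, in CPM (linear axis from 0), with open bars for SG and filled bars for YSG, and exact 95% Poisson intervals as thin lines. H1 stands at 591 to 1092 CPM and the other classes at 50.3 to 255, and H2B is highest in the YSG female.

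Hist1h1b, which encodes the linker histone H1.5 (chr13:21779883-21780625, minus strand), had the most UMIs of any member in all 4 libraries. It was at 529 CPM in the SG male, 292 in the YSG male, 619 in the SG female and 490 in the YSG female. Hist1h1e, for H1.4 (chr13:23620629-23622558, minus strand), came next with 289, 216, 331 and 362 CPM in that order, with the limit on its 3′ end given above. These are the only members above 200 CPM in any library. The 3 other H1 genes past 20 CPM were Hist1h1c, for H1.2, at 55.7, 41.8, 70.5 and 92.0 CPM, Hist1h1d, for H1.3, at 37.7, 23.5, 44.0 and 38.3 CPM, and Hist1h1a, for H1.1, at 25.9, 17.9, 27.1 and 25.2 CPM. In all 5 the YSG male was the lowest library.

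Among core histone genes, the pair in the Hist3 cluster was prominent. Hist3h2ba, an H2B gene (chr11:58948920-58949533, plus strand), was at 59.9 CPM in the SG male, 90.2 in the YSG male, 52.0 in the SG female and 113 in the YSG female. Its neighbour Hist3h2a, an H2A gene (chr11:58954685-58956830, plus strand), was at 24.9, 28.2, 21.5 and 43.4 CPM. For both genes each YSG library was above both SG libraries. The Hist3 cluster thereby gave 5.92% and 4.34% of histone UMIs in the SG male and female and 10.6% and 9.85% in the YSG male and female, while the Hist1 cluster gave 91.5% and 93.0% in SG and 86.7% and 88.1% in YSG. Hist1h2bc, an H2B gene (chr13:23684199-23692908, plus strand), was at 39.9, 30.5, 44.4 and 94.2 CPM, and only the YSG female stood apart.

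The remaining core genes past 20 CPM were 2 H2A, 1 H3 and 2 H4 genes. Hist1h2ae (H2A, chr13:23570517-23571220) was at 48.1, 68.6, 77.8 and 41.8 CPM, and Hist1h2ap (H2A, chr13:21833026-21833507) at 10.5, 61.3, 61.0 and 14.7 CPM. In both, the YSG male and the SG female were the high libraries. Hist1h3c (H3, chr13:23744973-23745602) was at 33.4, 16.9, 32.7 and 20.4 CPM, lower in both YSG libraries. Hist1h4d (H4, chr13:23581598-23582735) was at 75.2, 49.2, 75.8 and 66.8 CPM, and Hist1h4i (H4, chr13:22040636-22041362) at 18.2, 23.2, 18.6 and 25.1 CPM. For Hist1h4d the YSG libraries were the lower ones and for Hist1h4i the higher ones.

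**Figure D2:**
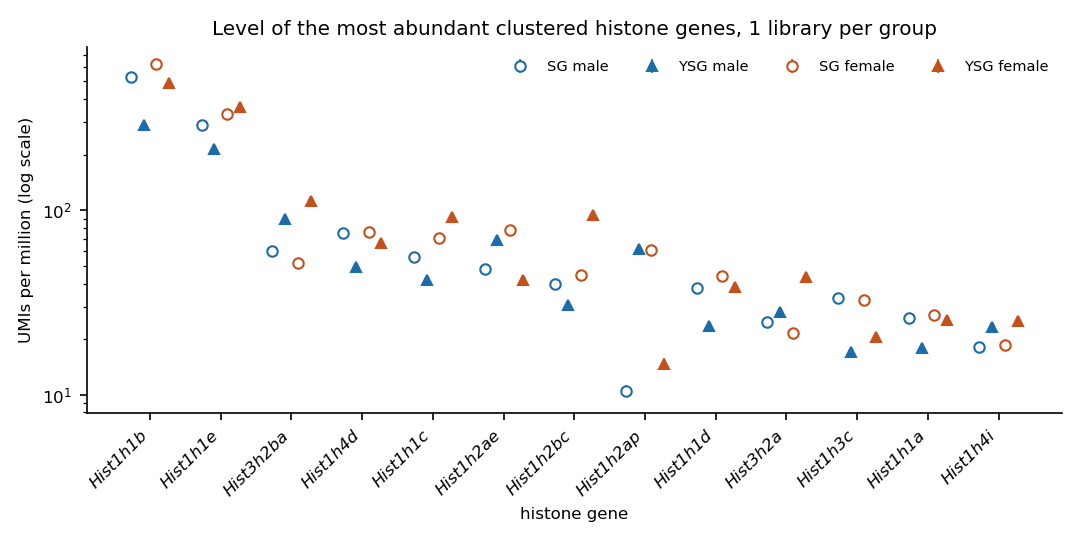
Level of the 13 members that reached 20 CPM in at least 1 library (log axis), 1 point per library, open circles for SG and triangles for YSG, males in blue and females in orange; the 95% Poisson intervals are mostly smaller than the points. Hist1h1b lies between 292 and 619, and Hist1h2ap splits into the YSG male and SG female near 61 and the other libraries at 10.5 and 14.7.

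The next comparison asked how far these levels follow S phase. A cell was called S-phase positive if it held at least 1 UMI of Rrm2 (a subunit of the enzyme that makes deoxynucleotides), Pclaf (a partner of PCNA) or Clspn (a replication checkpoint protein), none of which is a histone gene. To put cells on 1 depth, each was thinned at random to 2000 UMIs before the call, which left out 454 to 529 shallower cells per library. By this call 35.1% (34.0–36.1) of cells were positive in the SG male, 30.8% (29.8–31.9) in the YSG male, 35.7% (34.6–36.8) in the SG female and 26.8% (25.8–27.9) in the YSG female. At the cells' own depth the shares were 53.2%, 48.6%, 55.7% and 43.0%. Oligodendrocyte-like cells, which should not replicate, were positive in 5 of 37 cases after the same thinning (13.5%, 4.54–28.8). The 4 libraries lay above that value, but the share of the YSG female lies within its interval.

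Histone UMIs were concentrated in the S-phase positive cells. The summed members were at 2320 CPM in positive and 679 in negative cells of the SG male, 1804 and 633 in the YSG male, 2593 and 780 in the SG female, and 2580 and 955 in the YSG female. The ratios were 3.42 (3.32–3.52), 2.85 (2.76–2.95), 3.32 (3.23–3.42) and 2.70 (2.62–2.78). Positive cells thus held 64.9%, 56.0%, 64.8% and 49.7% of the histone UMIs of the thinned cells. The level was higher with each further S-phase gene UMI in a cell, at 679 CPM with 0, 1590 at 1, 2570 at 2 and 3472 at 3 or more in the SG male. The same steps were 633, 1258, 1985 and 2688 in the YSG male, 780, 1862, 2832 and 3795 in the SG female, and 955, 1684, 2842 and 3847 in the YSG female. The YSG male had the lowest value at every step, and the other libraries lay close together from 2 UMIs on.

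Member by member, most of the measured genes followed the call. Of the 29 members measured in all 4 libraries (5 CPM or more in positive or negative cells), 23 were more than 2-fold higher in positive cells in every library, against 2.83% of the 9675 genes measured likewise. By library, 27 of 31 members were higher in the SG male, 25 of 31 in the YSG male, 29 of 34 in the SG female and 25 of 31 in the YSG female, where 3.62%, 3.4%, 3.48% and 4.36% of all measured genes were. More than 2-fold lower were 0, 0, 0 and 2 members, against 1.92%, 1.34%, 1.98% and 3.2% of measured genes, and 0 members were that low in all 4 libraries, against 0.248%. The median log2 ratio of the measured members was 2.09, 1.70, 1.92 and 2.17, and that of all measured genes −0.07, −0.07, −0.06 and −0.08. The 6 members of the 29 that fell short were Hist1h4h, Hist1h2be and Hist1h1c, which were above 1 but not past 2-fold everywhere, and Hist3h2ba, Hist3h2a and Hist1h2bc, which were below 1 in all 4 libraries. Of these, Hist1h4h and Hist1h2be are named because the count is small.

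Among linker genes the ratio differed widely. Hist1h1b was at 955 CPM in positive and 155 in negative cells of the SG male, 6.17 times higher (5.83–6.53), and at 6.06 (5.62–6.53), 5.73 (5.43–6.06) and 8.67 times (8.11–9.28) in the other libraries in the order used above. Hist1h1a gave 6.29, 7.37, 5.12 and 10.1 times, and Hist1h1d 4.06, 3.87, 4.27 and 4.51 times. Hist1h1e gave 3.0, 2.22, 2.79 and 2.09 times, and Hist1h1c 2.17 (1.88–2.51), 1.76 (1.49–2.08), 1.99 (1.74–2.27) and 1.41 times (1.25–1.59). At the cells' own depth Hist1h1b gave 13.5 (12.7–14.3), 9.02 (8.46–9.63), 14.6 (13.7–15.5) and 12.8 times (12.1–13.4), and Hist1h1c 2.23, 1.81, 1.95 and 1.25 times, so the size of the Hist1h1b ratio depends on the thinning. At either depth the intervals of these genes did not overlap in any library. A Hist1h1b UMI was found in 58.6%, 45.8%, 63.4% and 57.0% of positive cells and in 16.4%, 12.5%, 17.5% and 13.8% of negative cells. In oligodendrocyte-like cells thinned likewise it was found in 3 of 37 (8.11%, 1.70–21.9), so the share in negative cells lies within the interval of the background.

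The core genes that followed S phase included the 3 H3 and H4 genes past 20 CPM. Hist1h3c was 6.28, 4.70, 4.52 and 6.92 times higher in positive cells, Hist1h4d 4.01, 3.56, 3.25 and 4.02 times, and Hist1h4i 2.98, 3.07, 2.51 and 2.82 times. The H2A genes Hist1h2ae, with 5.52, 4.86, 4.96 and 5.94 times, and Hist1h2ap, with 6.61, 5.92, 5.03 and 9.24 times, were also higher in every library.

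Hist3h2ba, Hist3h2a and Hist1h2bc went the other way. Hist3h2ba was at 50.7 CPM in positive and 79.0 in negative cells of the SG male, at 89.7 and 102 in the YSG male, at 51.2 and 67.5 in the SG female, and at 93.7 and 139 in the YSG female. Its ratio was 0.642 (0.559–0.736), 0.883 (0.786–0.991), 0.759 (0.655–0.878) and 0.674 (0.596–0.760). Hist1h2bc was at 29 and 54.4, 23.1 and 39.9, 40.9 and 59.4, and 57.4 and 132 CPM, with ratios of 0.534 (0.445–0.637), 0.579 (0.463–0.719), 0.689 (0.585–0.809) and 0.433 (0.372–0.503). Hist3h2a gave 0.602 (0.486–0.742), 0.752 (0.605–0.930), 0.636 (0.503–0.798) and 0.482 (0.392–0.587). Every one of these 12 intervals lies below 1. A ratio below 1 in all 4 libraries was common among genes at large (38.5% of 9675), and it was more than 2-fold only for Hist1h2bc and Hist3h2a in the YSG female. The set of 3 was picked after these values were seen. The other 64 members together were 4.35, 3.64, 3.99 and 3.89 times higher in positive cells. Hist3h2ba and Hist1h2bc also hold the H2B class flat: H2B as a whole gave 1.05, 1.1, 1.31 and 0.809, and without them 3.12, 2.88, 3.96 and 3.82.

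**Figure D3:**
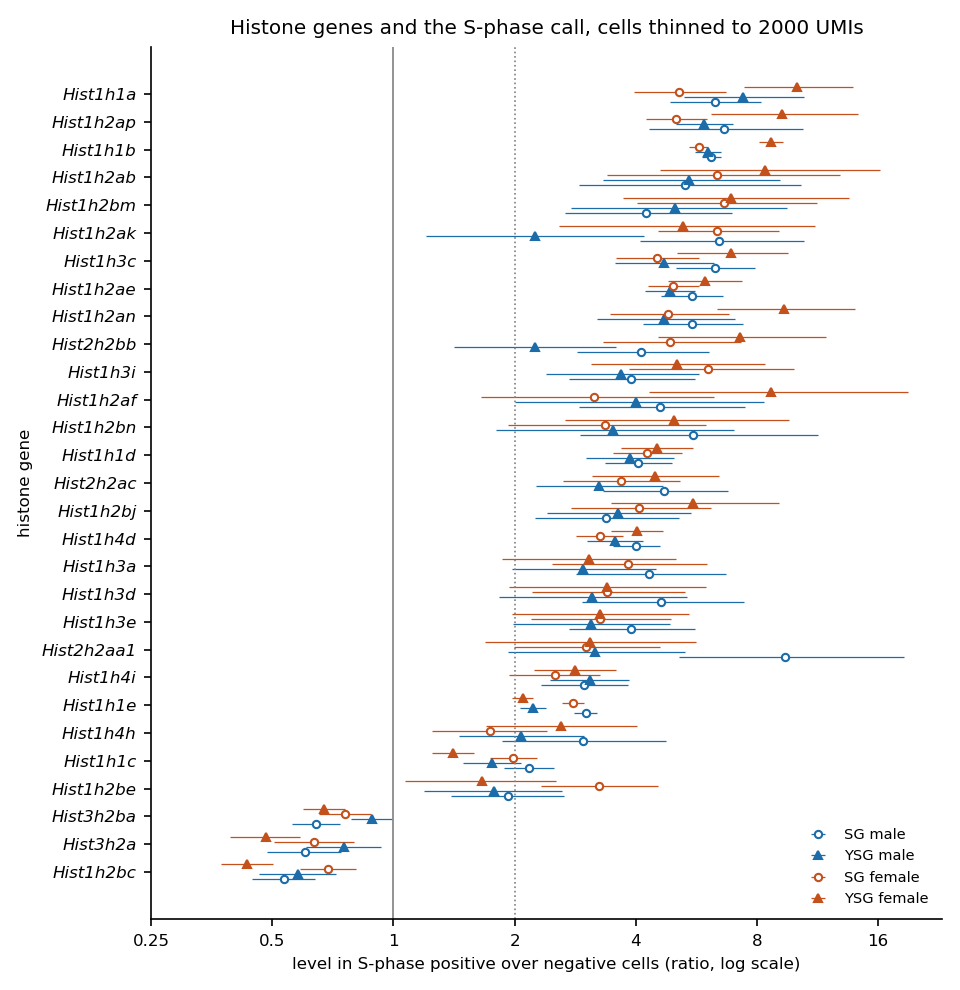
Ratio of the level in S-phase positive to that in S-phase negative cells (log axis) for the 29 members measured in all 4 libraries. Members are ordered by the median of their ratios, with 1 point per library and exact 95% intervals. The dotted line marks 2-fold: 23 members lie past it in every library, and Hist3h2ba, Hist3h2a and Hist1h2bc lie below 1 in every library.

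The G2/M list (16 genes such as Top2a, Mki67 and Cdk1) was used to split the cells further. Cells were split by the S-phase call and by 3 or more UMIs of the G2/M list, a number chosen after the data were seen. In the SG male the histone level was 482 CPM in 4339 cells with neither, 665 in 777 cells with the S-phase call only, 2959 in 2013 cells with both and 1716 in 825 cells with G2/M genes only. The YSG male gave 527, 672, 2318 and 1263 CPM, the SG female 516, 949, 3158 and 1903, and the YSG female 870, 908, 3343 and 1687. In all 4 libraries the cells with both were highest, and the cells with the S-phase call alone were closer to the cells with neither than to the cells with G2/M genes alone. Hist1h1b was at 58.3, 49.2, 61.3 and 65.0 CPM in cells with neither and at 1256, 765, 1289 and 1389 in cells with both. Free RNA and mixed droplets can add to the cells with neither, and their part was not tested. They can also give a cell the S-phase call: after the same thinning, 5 of 37 oligodendrocyte-like cells held it (13.5%, 4.54–28.8). How many cells with the call alone were in S phase was not tested, so their level is not read as that of S-phase cells without G2/M genes.

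**Figure D4:**
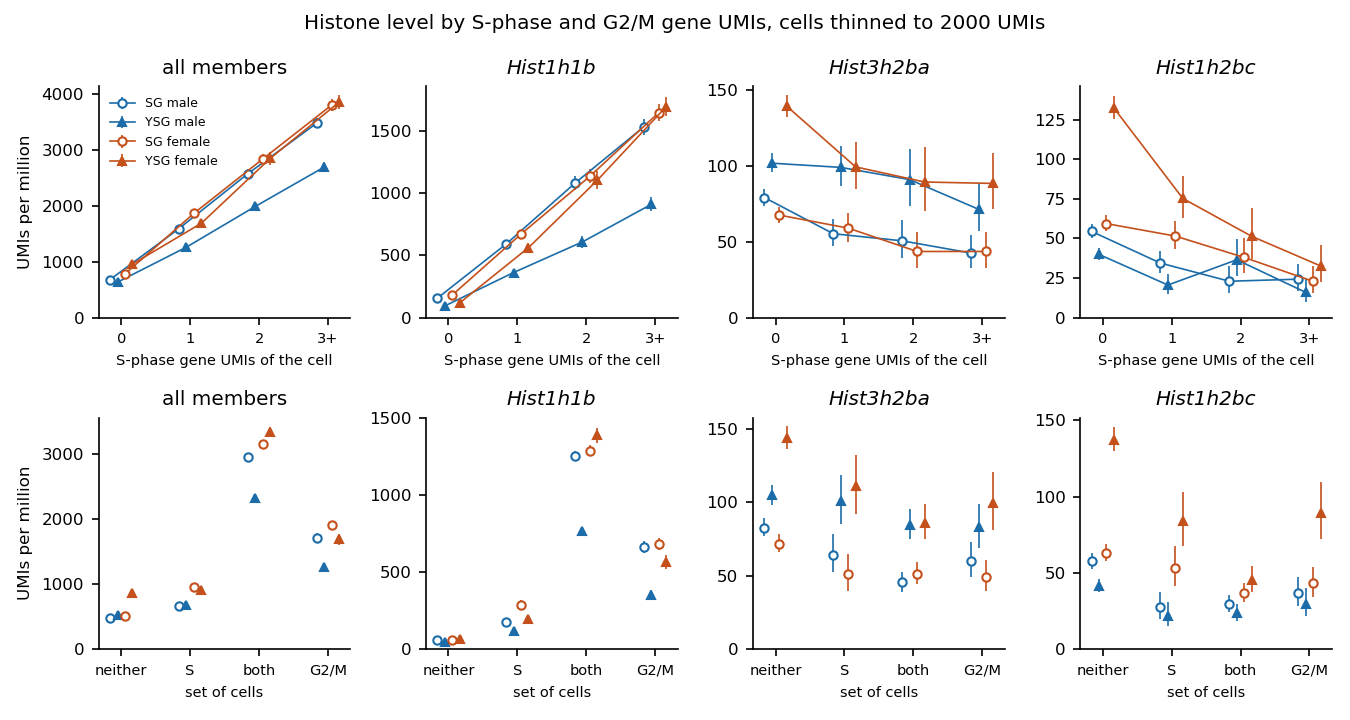
Level in CPM for all members, Hist1h1b, Hist3h2ba and Hist1h2bc, by the number of S-phase gene UMIs of the cell (top row) and in cells with S-phase genes, G2/M genes, both or neither (bottom row); points are libraries with exact 95% Poisson intervals, and lines join the points of 1 library. All members and Hist1h1b are higher at 3 or more UMIs than at 0 in every library, while Hist3h2ba and Hist1h2bc are lower at 3 or more than at 0.

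A background level was read from cells that should not replicate. The 47 oligodendrocyte-like cells of the 4 libraries, with a median of 6515 UMIs, held 195 histone UMIs, or 576 CPM (498–662). Of these cells, 8 held an S-phase gene UMI at their own depth. The cells without a class name and without S-phase UMIs at their own depth gave 470 CPM (461–480) in the SG male, 518 (508–528) in the YSG male, 508 (498–518) in the SG female and 841 (830–853) in the YSG female. The pooled oligodendrocyte-like interval thus holds the YSG male and SG female values, the SG male lies below it and the YSG female above it. Other pooled classes gave other values. The 46 leukocyte-like cells were at 315 CPM (222–434), below the unnamed negative cells of every library. The 12 endothelial-like cells were at 362 (224–553) and the 171 astroglia-like cells at 872 (818–929). S-phase gene UMIs were found in 3, 0 and 52 cells of these classes, so the astroglia-like value is not read as background. The level read as background thus depends on the class. At least 1 histone UMI was found in 80.9% (66.7–90.9) of oligodendrocyte-like cells and in 86.8%, 88.8%, 90.3% and 92.3% of all cells of the 4 libraries in the order used above, so such a share says little about which cells express histone genes. Single genes differed in the oligodendrocyte-like cells, and a gene that is higher there than in unnamed negative cells is not read as background. Hist1h1b was at 47.2 CPM (27–76.7) in oligodendrocyte-like cells and 54.7 (53.1–56.3) in unnamed negative cells, and Hist1h1e at 73.8 (47.8–109) and 155 (153–158). Hist1h2bc was at 180 CPM (138–231) in oligodendrocyte-like cells pooled over the libraries, against 75.3 (73.5–77.1) in unnamed negative cells. By library the oligodendrocyte-like value was 170 CPM (98.7–271) in the SG male, 39.3 (10.7–101) in the YSG male, 395 (244–603) in the SG female and 228 (137–356) in the YSG female, from 4 to 21 UMIs each. The unnamed negative cells gave 54.1, 39.5, 62.3 and 136 CPM in that order, so the YSG male showed no such difference. Hist3h2ba was at 118 (84.4–161) and 99.4 (97.3–102). In the pooled leukocyte-like and astroglia-like cells Hist3h2ba was at 8.50 (0.215–47.4) and 48.6 (36.5–63.5), and Hist1h2bc at 51.0 (18.7–111) and 141 (120–165). After thinning, a UMI of Hist1h2bc was found in 10 of 37 oligodendrocyte-like cells (27%, 13.8–44.1), above its 5.33 to 13.4% of all cells, and a UMI of Hist3h2ba in 7 of 37 (18.9%, 7.96–35.2), against 10.6 to 20.4%.

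Between genotypes, the summed members were lower in the YSG library of each sex, by different amounts. The YSG to SG ratio was 0.775 (0.768–0.783) in males and 0.935 (0.928–0.943) in females. Hist1h1b alone held much of this: without it the ratios were 0.906 (0.896–0.917) and 1.02 (1.01–1.03), on the other side of 1 in females. Hist1h1b itself gave 0.552 (0.542–0.562) and 0.790 (0.779–0.802). The share of S-phase positive cells was also lower in the YSG library of each sex (values above), and so were the levels of Top2a, at 493, 376, 532 and 358 CPM, and Mki67, at 476, 387, 486 and 347 CPM. Of 10 markers of differentiating granule neurons, 9 were higher in the YSG library of each sex, among them Neurod1 at 160, 262, 152 and 375 CPM and Stmn2 at 319, 568, 260 and 750 CPM in the same order. Robo3 was lower, at 13.1, 1.38, 16.1 and 11.6 CPM. The 7 granule progenitor markers were split. In the YSG library of each sex 3 were higher (Atoh1, Mycn and Barhl1) and 3 lower (Gli1, Ptch1 and Ccnd1). Gli2 was at 12.8, 13.4, 14.5 and 13.5 CPM. How far these markers bear on the histone values was not tested.

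Within S-phase positive cells the ratio was 0.778 (0.756–0.799) in males and 0.995 (0.969–1.02) in females, and within negative cells 0.932 (0.901–0.964) and 1.22 (1.19–1.26). The male difference was thus as large among positive cells as in the whole library. The female ratio in positive cells depended on the setting, at 1.03 (1.02–1.03) without thinning, 0.973 (0.956–0.990) at 4000 UMIs and 0.967 (0.942–0.992) with a call from Mcm genes. Without thinning the male ratio in negative cells was 1.1, and at 4000 UMIs 1.03, so its direction depends on that choice. Hist1h1b was at 0.589 in males and 0.983 (0.942–1.03) in females among positive cells, and at 0.585 and 0.997 (0.983–1.01) without thinning. Among negative cells it was at 0.600 and 0.650 (0.602–0.701), but at 0.874 (0.802–0.953) and 1.14 (1.05–1.23) without thinning, so its direction in negative cells of females depends on the depth. In the thinned negative cells the female ratio of the members was 0.991 (0.955–1.03) without Hist3h2ba, Hist1h2bc and Hist3h2a. At 4000 UMIs it was 1.21 (1.17–1.25) without them and at own depth 1.46 (1.42–1.5), so it stayed above 1 there. Hist1h1e, at 1.5 (1.41–1.60) thinned and 1.90 (1.81–1.99) at own depth, and Hist1h1c, at 1.75 (1.56–1.98) and 1.97 (1.81–2.13), were also higher in negative cells of the YSG female than of the SG female.

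The classes split by genotype as well. H1 gave 0.631 (0.623–0.639) in males and 0.922 (0.912–0.931) in females, H3 gave 0.655 (0.626–0.684) and 0.689 (0.660–0.719), and H4 gave 0.843 (0.815–0.873) and 0.921 (0.893–0.951). H3 was therefore the class with the closest values in both sexes. H2B gave 1.06 (1.03–1.09) and 1.54 (1.51–1.58), but 0.800 (0.763–0.840) and 0.693 (0.662–0.725) without Hist3h2ba and Hist1h2bc. H2A gave 1.38 (1.35–1.42) in males and 0.669 (0.653–0.686) in females, in opposite directions, and 1.05 (1.02–1.08) and 0.814 (0.793–0.836) without Hist1h2ap. Both left-out sets were chosen after the values were seen.

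Few single members passed 2-fold. In males 1 of 29 measured members was higher in YSG, Hist1h2ap, and 1 was lower, Hist1h2ak, where 2.07% and 2.72% of 10180 genes were higher and lower. In females 3 were higher, Hist3h2ba, Hist3h2a and Hist1h2bc, and 3 lower, Hist2h2aa1, Hist1h2ak and Hist1h2ap, where 3.7% and 2.83% of 10379 genes were. Of the 29, 20 were under 1 and 9 above it in each sex, with a median log2 ratio of −0.41 in males and −0.20 in females against −0.01 and 0.00 over all measured genes. Only Hist1h2ak passed 2-fold in the same direction in both sexes, with 8.89 and 3.61 CPM in the SG and YSG males and 18 and 3.82 in the females, or 0.407 (0.347–0.475) and 0.213 (0.184–0.245). A level more than 2-fold lower in both sexes was found for 1.75% of 10090 genes, and higher in both for 1.41% of them and for 0 members. Hist2h2aa1 was at 5.65, 4.85, 8.55 and 4.03 CPM, or 0.858 (0.737–0.999) and 0.472 (0.405–0.547).

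The genotypes can be tested over both sexes if the male and female libraries stand as 2 animals per genotype, with sex as a term, an alternative added after the data were seen. In edgeR's quasi-likelihood test with Benjamini-Hochberg adjustment, 4 of 29 members were lower and 1 higher in YSG at an adjusted p under 0.05, against 7.65% and 9.1% of 10469 genes. The lower ones were Hist1h2ak (log2 difference −1.76, adjusted p = 0.00375), Hist1h3c (−0.82, adjusted p = 0.00599), Hist2h2bb, an H2B gene named because it passed (−0.80, adjusted p = 0.0150), and Hist1h1b (−0.59, adjusted p = 0.0225), and the higher one was Hist3h2ba (0.86, adjusted p = 0.00582). Each of the 5 had the same direction in both sexes. Hist3h2a (0.60, adjusted p = 0.0775), Hist1h2bc (0.36, adjusted p = 0.459) and Hist1h2ap (0.25, adjusted p = 0.906) did not pass in this edgeR fit. The fit has 1 residual degree of freedom. Without the sex term 4 of 29 members passed, against 874 of 10469 genes. With 1 library left out of that fit, 1 genotype keeps a single library, so no counts are given. The calls depended on which library was left out.

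The 3 genes that were lower in S-phase positive cells were higher in the YSG female than in any other library. Hist3h2ba gave 1.5 (1.45–1.57) in males and 2.17 (2.09–2.25) in females, Hist3h2a 1.13 (1.06–1.21) and 2.02 (1.90–2.15), and Hist1h2bc 0.765 (0.721–0.811) and 2.12 (2.04–2.21). Summed, they took 8.70% of histone UMIs in the SG male, 13.4% in the YSG male, 6.96% in the SG female and 15.8% in the YSG female. Hist3h2ba gave 1.77 in males and 1.83 in females within S-phase positive cells, and 1.29 and 2.06 within negative cells. That of Hist1h2bc was 0.796 (0.616–1.02) and 1.40 (1.15–1.71) in positive cells and 0.733 and 2.23 in negative cells. Of the 10 markers of differentiating granule neurons, 7 were highest in the YSG female, among them Tubb3 at 318, 480, 288 and 538 CPM. The other 3 were not: Nhlh1 was at 68.6, 92.0, 70.6 and 78.4 CPM, Rbfox3 at 76.9, 121, 82.8 and 120 CPM, and Robo3 as given above. Their part in these values was not tested.

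**Figure D5:**
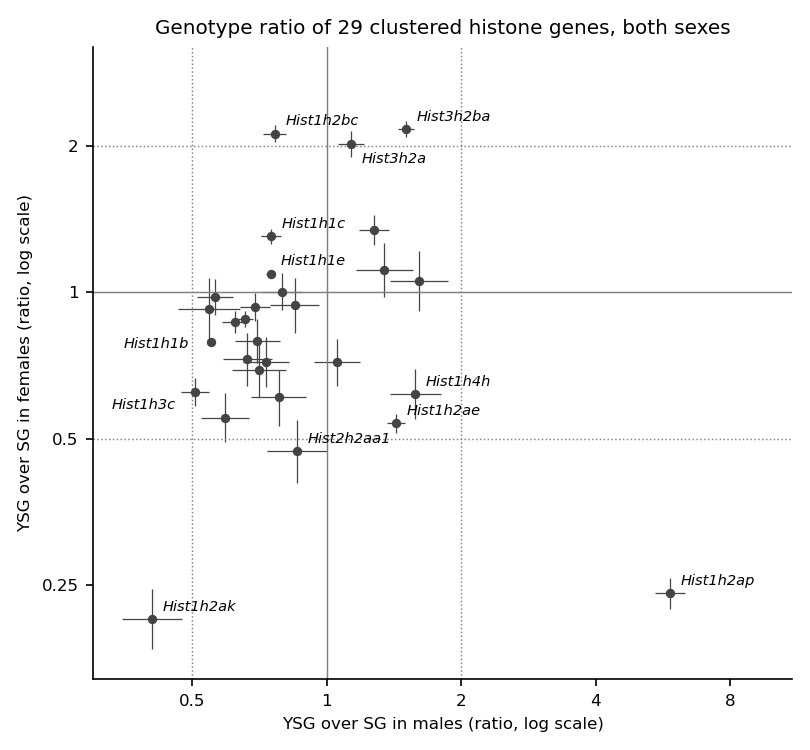
YSG to SG ratio in females against that in males for the 29 members at 5 CPM or more (both axes log), with exact 95% intervals; solid lines mark 1 and dotted lines 2-fold. Most members lie below 1 on both axes, Hist3h2ba, Hist3h2a and Hist1h2bc lie past 2 in females, and Hist1h2ap lies at 5.86 in males and 0.241 in females.

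Hist1h2ap ran in opposite directions in the 2 sexes. It was at 10.5 CPM in the SG male (765 UMIs) and 61.3 in the YSG male (3731 UMIs), and at 61.0 in the SG female (5299 UMIs) and 14.7 in the YSG female (856 UMIs). The ratios were 5.86 (5.42–6.34) and 0.241 (0.223–0.259). Opposite directions past 2-fold were found for 1 of 29 members and for 9 of 10090 genes (0.0892%). The pattern was present in both sets of cells, at 6.64 (5.36–8.30) and 0.303 (0.243–0.374) in S-phase positive cells and 7.41 (4.98–11.4) and 0.165 (0.109–0.242) in negative cells. A UMI of it was found in 1.58%, 8.11%, 8.25% and 1.91% of thinned cells, and in 0 of 37 oligodendrocyte-like cells (0–9.49%). That interval holds the share of every library. Hist1h2ae, which differs from it at 6 coding bases, ran the same way with 1.43 (1.36–1.49) and 0.537 (0.513–0.563). Hist1h2ao, identical in its coding sequence, had 12, 6, 9 and 9 UMIs. Because each group is 1 animal's library, genotype, sex and differences between single animals cannot be told apart here.

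Of the 11 replication-independent histones, 0 passed 2-fold between genotypes in either sex, where 2.07% and 2.72% of all measured genes were higher and lower in males and 3.7% and 2.83% in females. H3f3b and H3f3a, both for H3.3, were at 5053, 4656, 5452 and 5816 CPM and at 2744, 2464, 2510 and 2563 CPM, and H2afz, for H2A.Z, at 3134, 3076, 3098 and 3071 CPM. H2afz was 1.79, 1.67, 1.76 and 1.85 times higher in S-phase positive cells and H3f3b only 1.12, 1.05, 1.13 and 0.938 times, while 2 of the 11 passed 2-fold in every library, H2afx, at 3.11, 2.97, 2.97 and 3.45 times, and Cenpa, the centromeric H3 variant. H1f0, a linker histone of differentiated cells named after its values were seen, was at 113, 138, 125 and 184 CPM, higher in YSG in each sex (1.22 and 1.47), and flat across the S-phase call (0.983, 0.997, 0.965 and 0.914).

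Of 14 measured genes for histone mRNA processing, 0 passed 2-fold between genotypes and 1 passed it across the S-phase call in every library, Slbp. It was at 182, 155, 160 and 128 CPM, and 3.16, 2.83, 2.90 and 3.48 times higher in positive cells. The processing factors Srrt and Casp8ap2 stood at 165, 175, 170 and 118 CPM and at 152, 129, 155 and 146 CPM. Of 13 chaperones, 0 passed between genotypes, and 4 were higher in S-phase positive cells in all 4 libraries: Asf1b, Chaf1a, Chaf1b and Hat1, which deliver or acetylate new histones. Over all measured genes, 2.83% were more than 2-fold higher across the call in every library. Between genotypes 2.07 to 3.7% passed per sex and direction, so 0 in lists this short is near that share. The most abundant chaperones were Nap1l1, at 844, 794, 806 and 846 CPM, Nasp, at 555, 524, 535 and 502 CPM, and Atrx, at 502, 542, 478 and 580 CPM. Nasp was 1.77, 1.74, 1.78 and 2.08 times higher in positive cells.

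For the 24 genes of G1/S and S control, 21, 19, 21 and 22 were more than 2-fold higher in S-phase positive cells and 0 passed 2-fold between genotypes. Of all measured genes, 3.62%, 3.4%, 3.48% and 4.36% were that much higher in S-phase positive cells, and the shares between genotypes are those given above. Pcna, the replication clamp, was at 253, 217, 242 and 216 CPM, Mcm7 at 172, 180, 174 and 151, and the nucleoside transporter Slc29a1 at 172, 162, 185 and 149. Of 16 G2/M genes, only Plk1, a mitotic kinase, passed 2-fold between genotypes, at 0.479 in females. The median log2 ratio of the G2/M list was −0.18 in males and −0.48 in females, and that of the G1/S and S list −0.11 and −0.20, against −0.41 and −0.20 for the clustered histone genes. The replication-independent list gave −0.12 and −0.01, the processing list −0.08 and −0.15, and the chaperones −0.12 and −0.21.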

How the data were processed

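Single-cell libraries were made with the 10x Genomics 3′ kit V3 and read on DNBseq, per the labels' protocols. The deposited files are filtered matrices of UMI counts per gene and barcode, made by the authors with Cell Ranger 5.0.1, per the file headers, on build mm10, per the submitters' processing notes. How reads shared between genes were treated is not given in the sources used here. Members and gene lists were chosen with earlier results of these data known. Counts were summed per library over cells that had at least 500 UMIs and 300 genes with no more than 20% of UMIs mitochondrial, and divided by all UMIs (CPM). Depth per library after the filter was 58308739 to 86810253 UMIs. Single libraries were compared without a p-value: sums have exact Poisson, shares exact Clopper-Pearson and ratios exact conditional binomial intervals at 95%, which cover counting error only, and molecules of 1 cell are not independent. As an alternative added after the data were seen, genotype was tested with edgeR's quasi-likelihood test on library sums with sex as a term. It used TMM scaling and Benjamini-Hochberg adjustment over 10469 genes at 5 CPM or more in a library. The labels do not say how the animals relate. In this fit a genotype difference that varies between the sexes counts as error. Without the sex term, differences between sexes count as error too. Named members reached 20 CPM in a library, or reached 5 CPM and passed 2-fold between genotypes; for each companion list the 3 genes of highest mean CPM are named. Other genes are named where a count is small or as stated. Cell classes needed 5 or more UMIs over 3 or more markers and 1% of the cell's UMIs, a rule set after the data were seen. Doublets were kept: Scrublet's own threshold marked 0 to 2 cells per library and so did not work, and the alternative leaves out the 6% of cells with the highest scores. Sequences come from RefSeq (promoters, GRCm38.p6) and GENCODE M21; proteins were not used here. Alternatives were another cell filter, doublet score, cell set, S-phase gene list, thinning depth (for named members added after the data were seen), denominators and level filters. The ratio and edgeR scripts were tested on simulated data. Software was Python 3.11.15 with numpy 2.4.6, pandas 2.3.3, scipy 1.17.1, scanpy 1.11.5 and matplotlib 3.10.9, and R 4.3.3 with edgeR 4.0.16.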

Additional observations from a re-analysis of the deposited data

Results flagged for a closer look

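For 6 members the interval of the YSG to SG ratio lay above 1 in 1 sex and below 1 in the other, with each group 1 library, so the difference between sexes was not tested. The intervals cover counting error only, and the count stands without the share of all genes that meet the same rule. It is therefore not read as a result about the members. Hist1h1e gave 0.749 in males and 1.09 in females, Hist1h1c 0.751 and 1.30, and Hist1h2bc 0.765 and 2.12, all lower in the YSG male and higher in the YSG female. Hist1h2ap gave 5.86 and 0.241, Hist1h2ae 1.43 and 0.537, and Hist1h4h 1.58 and 0.618, all higher in the YSG male and lower in the YSG female. Reads of Hist1h1e and Hist1h2ap can be shared with other genes, as described for their 3′ ends.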

How the results depend on the processing

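No paired analysis was possible because the labels give no replicate numbers, but the edgeR fit over both sexes has sex as a term. It called 5 of 29 members with TMM scaling and with none, against 1754 and 1746 of 10469 genes. Without the sex term it called 4 under either scaling, against 874 and 856 genes. With 1 library left out and no sex term the calls changed. The lone library of a genotype is then assumed to vary like the other genotype, so no counts are given for these fits. Of the alternatives computed, 103 values stayed within their interval or count range, 68 moved and 4 reversed, and the cause was not tested. The values that stayed include means of per-cell shares in thinned cells. These equal the main value by construction, because every thinned cell has the same depth, and they do not count as agreement. The YSG to SG ratio of all members was 0.906 in males and 1.02 in females (reversed) without Hist1h1b, 0.811 and 0.945 as a mean of per-cell shares, and 0.917 in females without the highest Scrublet scores. Within S-phase positive cells it was 0.909 in males without Hist1h1b, and in females 1.02 with 2 or more S-phase UMIs, 0.967 with the Mcm gene set and 1.03 without thinning. Within negative cells males gave 1.03 without Hist1h1b, 1.1 without thinning and 1.03 at 4000 UMIs (all reversed), 0.856 with 2 or more UMIs and 0.899 with the Mcm set, and females 1.40, 1.65, 1.45 and, with 2 or more UMIs, 1.05. The positive to negative ratio kept its direction: without Hist1h1b it was 2.60, 2.30, 2.60 and 1.87 (SG male, YSG male, SG female, YSG female), with the Mcm set 2.87, 2.42, 2.88 and 2.33, without thinning 3.87, 2.76, 4.04 and 2.51. At 4000 UMIs it was 4.06, 3.13 and 4.04 in the first 3 libraries, with 2 or more UMIs 3.15 in the YSG male and 3.2 in the YSG female, and without the highest Scrublet scores 3.57 and 3.49 in the SG male and female. The share of positive cells was 17.5, 15.3, 17.9 and 14.0% with 2 or more UMIs, 42.7, 41.2, 42.1 and 34.7% with the Mcm set, 53.2, 48.6, 55.7 and 43.0% without thinning and 49.5, 45.3, 48.8 and 38.0% at 4000 UMIs, lowest in the YSG female each time. With any member of 1 or more UMIs counted, 2 members were higher and 2 lower in YSG males and 7 lower in YSG females, and S-phase positive cells had 46, 47, 44 and 48 members higher, with 1 lower in the YSG male and 4 in the YSG female. With 20 CPM, 0 were lower in YSG males and 1 in YSG females, and 11, 9, 13 and 11 were higher in positive cells. The counts at these other level filters stand without the share over all genes, so they are not read as a result about the members. Depth limits the rest: 38 of 67 members stayed under 5 CPM.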

Other observations

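Among the 9 genes that passed 2-fold in opposite directions in the 2 sexes, 3 beside Hist1h2ap were higher in the YSG male and lower in the YSG female. They are named after their values were seen. Mid1, which encodes a ubiquitin ligase, was at 5.99 CPM in the SG male, 37.8 in the YSG male, 35.7 in the SG female and 3.62 in the YSG female. Gm47283 was at 119, 394, 267 and 84.9 CPM in that order, and Gm10076 at 36.4, 119, 95.4 and 43.2 CPM. The YSG male and the SG female are the high libraries for all of them, as for Hist1h2ap.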
